A study of Mus musculus with 6 samples.

Results

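The AP-1 transcription factor family was followed here through 10 genes: the FOS genes Fos, Fosb, Fosl1 and Fosl2, the JUN genes Jun, Junb and Jund, the stress-induced gene Atf3, and the small MAF genes Maff and Mafk. They were chosen by gene symbol from 23268 genes in the table of transcript levels, and all 10 were found and tested. The cells were group 2 innate lymphoid cells (ILC2s), tissue-resident lymphocytes that make type 2 cytokines without an antigen receptor, isolated by sorting from colons of C57BL/6 mice, 6 to 8 weeks old. For 6 days the mice received 3% dextran sulfate sodium (DSS), which damages the gut lining and is a standard model of colitis, or water as the control. RNA sequencing of full-length cDNA gave 3 DSS and 3 control libraries, and the comparison asks how DSS colitis changes the transcripts of these cells. The labels name no other genotype or treatment and leave unsaid whether each library is 1 mouse or several. The p-values therefore reflect only how these libraries vary, which may be technical.

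AP-1 is a dimer of basic leucine zipper proteins. FOS proteins bind DNA only as partners of JUN proteins, whereas JUN proteins can also pair with each other, and the composition of the dimer sets which sites it binds and how strongly it activates. In lymphocytes AP-1 acts downstream of MAP kinases, often beside NFAT, on cytokine genes. FOS and JUN genes are classic immediate early genes, switched on within minutes of a signal without new protein synthesis, and they are also known to be induced while cells are being freed from a tissue. Small MAF proteins have a zipper but no activation domain, and act as partners of NRF2, BACH1 and their relatives.

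Of the 10 genes, RefSeq promoter windows were matched for 9 (11 windows), all but Fosl1. The windows printed here hold the 250 bases before the annotated start, 5′ to 3′ on the gene's strand, build GRCm38.p6. They are shown for Fos and Fosl2, the members whose DSS and control libraries did not overlap, and for Jun and Junb. The shares of Jun and Junb in the summed JUN gene levels did not overlap between the groups (exact two-sided permutation test, p = 0.10 each). That measure was chosen after the levels were seen. Capitals mark matches to TGACG, the core of the cAMP response element, on either strand, or to TGANNTCA, the 8-base form of the AP-1 and cAMP response site, which reads the same on both strands.
Fos (chr12:85473640-85473889, plus strand): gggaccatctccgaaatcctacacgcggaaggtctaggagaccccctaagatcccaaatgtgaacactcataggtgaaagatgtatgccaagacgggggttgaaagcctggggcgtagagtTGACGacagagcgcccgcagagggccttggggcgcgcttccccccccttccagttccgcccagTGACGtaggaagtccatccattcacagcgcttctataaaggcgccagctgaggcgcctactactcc
Fosl2 (chr5:32136222-32136471, plus strand): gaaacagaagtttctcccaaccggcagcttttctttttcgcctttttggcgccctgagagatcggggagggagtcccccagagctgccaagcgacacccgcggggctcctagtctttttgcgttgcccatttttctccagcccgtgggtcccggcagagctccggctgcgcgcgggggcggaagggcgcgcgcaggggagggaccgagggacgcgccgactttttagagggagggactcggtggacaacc
Jun (chr4:95052223-95052472, minus strand): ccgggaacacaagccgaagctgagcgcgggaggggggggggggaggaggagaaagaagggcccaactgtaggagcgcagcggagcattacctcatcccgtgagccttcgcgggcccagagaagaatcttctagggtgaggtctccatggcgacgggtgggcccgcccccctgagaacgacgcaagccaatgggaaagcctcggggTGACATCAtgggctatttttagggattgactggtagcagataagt
Junb (chr8:84978749-84978998, minus strand): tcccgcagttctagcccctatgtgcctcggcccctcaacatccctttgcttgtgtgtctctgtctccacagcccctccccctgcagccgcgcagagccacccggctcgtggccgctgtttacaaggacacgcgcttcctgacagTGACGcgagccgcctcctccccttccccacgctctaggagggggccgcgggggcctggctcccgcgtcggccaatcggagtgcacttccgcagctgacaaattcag

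The Fos window held TGACG starting 129 and 66 bases before the start, and the Junb window held it 106 bases before. In the Jun window the word TGACATCA, known as the site through which AP-1 acts on its own gene, began 45 bases before the start. None of these motifs was found in the Fosl2 window. Among all 9 genes, 6 had TGACG in a window and 3 had TGANNTCA. Counted by window, as for the background below, 7 of 11 held TGACG. A TGACGTCA word counts for both motifs, as in 1 of the 3 Maff windows. Of 32851 promoter windows of the same length outside chromosome 18, 17.8% held TGACG, 11.9% TGANNTCA, 6.75% the 7-base AP-1 site TGANTCA and 1.47% a CArG box, the SRF site. The last of these, and TGANTCA, occurred in 0 of the 9 genes' windows. Bases more than 250 before the start were not searched, so sites further upstream would be missed. The starts are those of RefSeq and can differ from those of the loci given below. Jund, 1 of the 3 genes with TGANNTCA, had a window ending at base 70697738, while its locus starts at 70698949. The bases just before that locus start were not searched. The Fosl2 window lay inside its locus, which starts at 32135801.

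AP-1 transcripts were among the most abundant in these cells. Together the 10 genes took 1.63%, 2.72% and 2.64% of all fragments in DSS replicates 1, 2 and 3, and 2.11%, 2.23% and 2.08% in control replicates 1, 2 and 3. Levels are given as FPKM, fragments scaled to the length of the gene and the total of the library, which allows comparison between genes. By mean level, Junb ranked 7 among all genes in DSS libraries and 7 in control libraries, and Fos ranked 29 in both. Fosl1, the least abundant member, ranked 7698 in DSS libraries and 6619 in control libraries. In DSS libraries the order of means was Junb, Fos, Jun, Atf3, Jund, Fosb, Fosl2, Maff, Mafk and Fosl1. There the ranges of neighbours overlapped for Junb and Fos, for Jun and Atf3, and for Atf3 and Jund. In control libraries the order was Junb, Fos, Atf3, Jund, Jun, Fosb, Fosl2, Maff, Mafk and Fosl1, and no neighbours overlapped. By mean, Jun thus stood above Atf3 and Jund in DSS libraries and below both in control libraries.

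**Figure D1:**
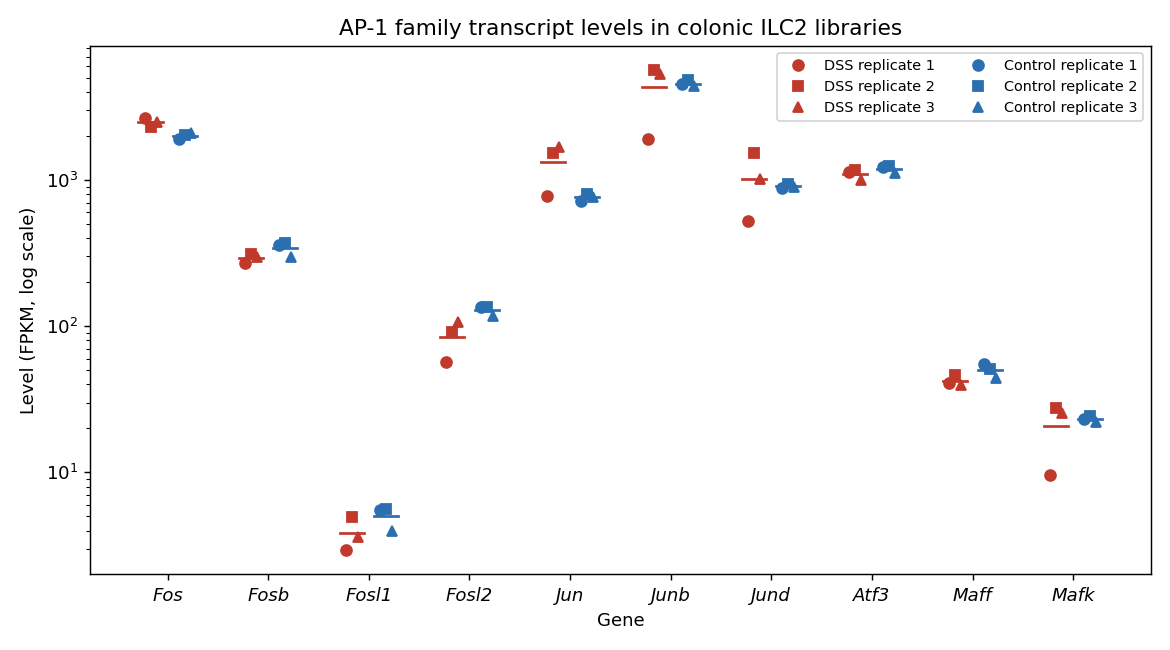
Level of each AP-1 family gene (y axis, FPKM on a log scale) in the 3 DSS libraries (red, left) and the 3 control libraries (blue, right), with bars at the group means. Junb, Jund and Mafk of DSS replicate 1 (red circles) lie below all other libraries, while Fos lies above the controls in each DSS library.

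The libraries were uneven, and this touches the results below. Depth was 9962415 to 18951020 fragments in DSS libraries and 12670662 to 23119390 in control libraries. DSS replicate 3 and control replicate 3 had few genes at 0 (1115 and 1621), against 3978 to 7459 in the other 4. Yet they were the lowest in depth (9962415 and 12670662 fragments). Their median levels over all genes were the highest, 2.61 and 1.64 FPKM, against 0.40 to 0.78 FPKM in the other 4. The cause was not tested. In DSS replicate 1, levels depended on transcript length. Among 2632 genes with a mean of at least 20 FPKM, its median deviation from the 6-library median was 0.81 on the log2(FPKM + 1) scale for transcripts of up to 992 bases and −0.45 for those of 4347 bases or more. DSS replicate 3 leaned the other way, with −0.37 in the shortest class and −0.043 in the longest. In DSS replicate 2 and the 3 control libraries these medians were −0.085 to 0.12 in every length class. Among genes with transcripts of 1420 to 2242 bases, DSS replicate 1 deviated by −0.39 where GC content was over 60% (32 genes) and by 0.36 where it was 45% or less (86 genes), while DSS replicate 3 deviated by −0.042 and −0.36 in the same classes. ILC2 markers were present in every library, the lowest being Il13 at 11.9 FPKM in DSS replicate 3. The 13 markers summed to 4879 to 7763 FPKM in DSS and 6639.7 to 7576 FPKM in control libraries, and 11 of the 13 were lower in DSS libraries, of which 1 passed (Il5). Over all genes, 53.1% were higher and 0.148% passed lower.

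**Figure D2:**
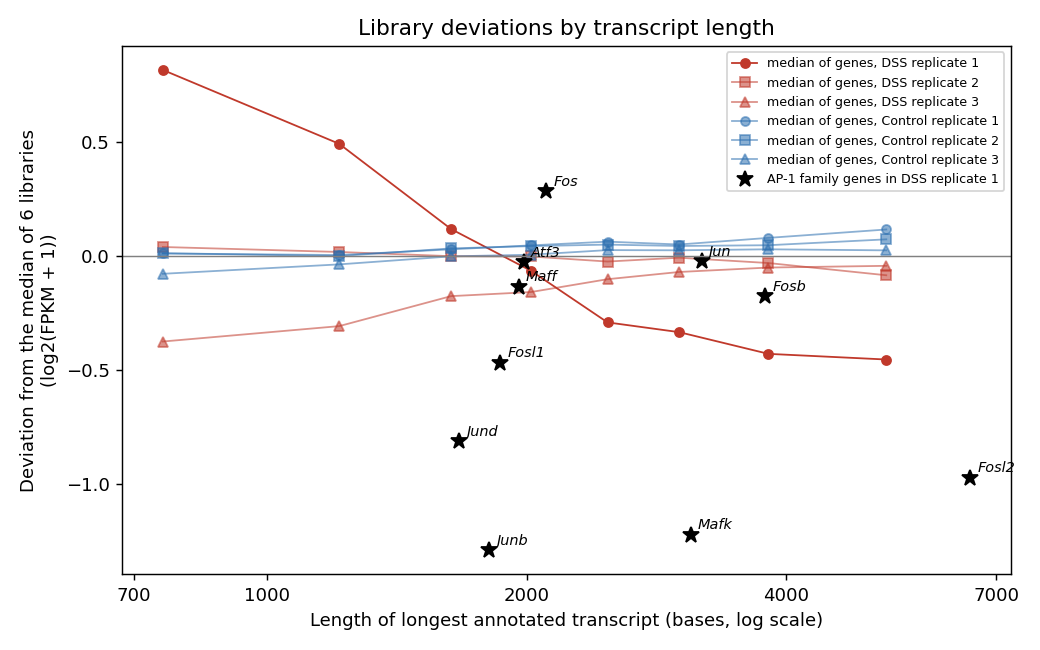
Median deviation of genes from the 6-library median (y axis, log2(FPKM + 1)) in 8 classes of transcript length (x axis, bases on a log scale) for each library, with the AP-1 family genes in DSS replicate 1 as stars. The line of DSS replicate 1 runs from 0.81 for the shortest class to −0.45 for the longest, and the stars of Junb, Mafk, Fosl2 and Jund lie at −1.29, −1.22, −0.97 and −0.81.

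With all 6 libraries, 0 of the 10 genes passed the limma threshold (adjusted p from 0.467 to 0.986). The same held with voom on recovered fragments. Of all 12187 genes tested, 0.222% passed, 0.0738% higher and 0.148% lower in DSS libraries. At an unadjusted p under 0.05, 2 of the 10 were counted (Fosl2 and Jun), against 8.99% of all genes. By sign, 3 of the 10 were higher and 7 lower in DSS libraries, with a median log2 change of −0.23, against 53.1% higher and a median of 0.03 over all genes. Each log2 change is the DSS mean minus the control mean of log2(FPKM + 1), a scale that shrinks the changes of weakly expressed genes. DSS libraries lay entirely above controls for 1 member, Fos, where 6.35% of all genes did so, and entirely below for 1, Fosl2, where 9.60% did so. These counts are near the shares over all genes. Fewer cells of a type and less RNA per cell cannot be told apart in such bulk libraries.

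**Figure D3:**
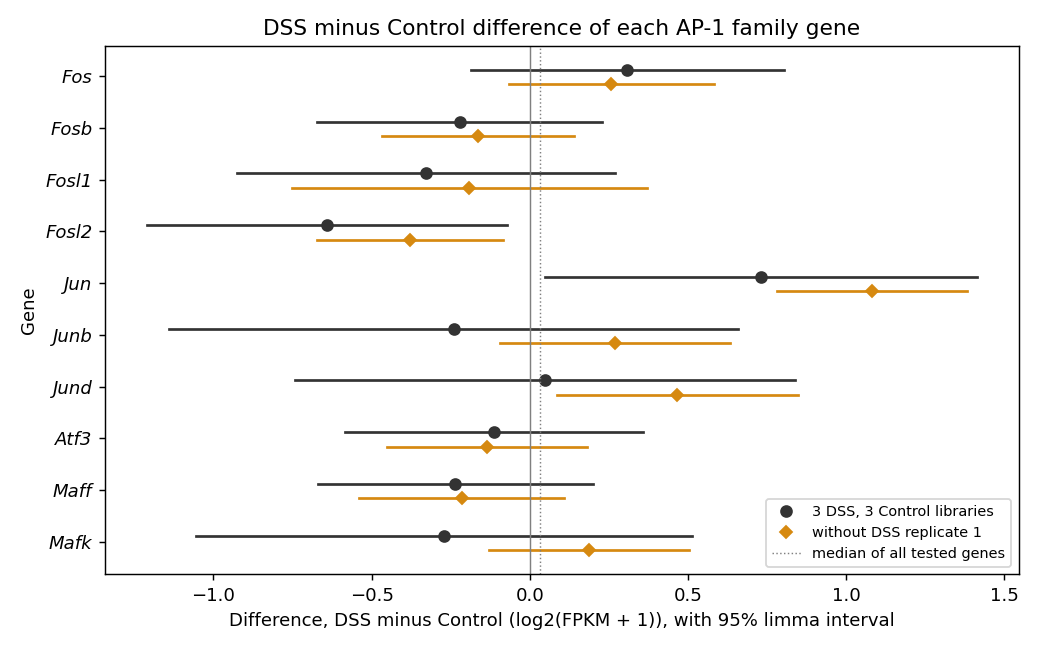
Difference of each AP-1 family gene, DSS minus control (x axis, log2(FPKM + 1)), with its 95% limma interval, from all 6 libraries (black) and without DSS replicate 1 (orange). With all libraries 8 of 10 intervals include 0, those of Fosl2 and Jun being the exceptions, and without DSS replicate 1 the Jun interval runs from 0.78 to 1.38.

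Among the FOS genes, Fos was higher and Fosl2 lower in every DSS library. Fos, which encodes c-Fos, the founding FOS protein and the one with the most transient induction, had 2671, 2309 and 2508 FPKM in DSS replicates 1, 2 and 3, against 1918, 2036 and 2087 FPKM in control replicates 1, 2 and 3. The groups did not overlap, and the gap between the lowest DSS and the highest control library was smaller than the range of the DSS libraries. Means were 2496 ± 181 FPKM in DSS and 2014 ± 86.6 FPKM in control libraries (SD, n = 3 each), with a log2 change of 0.31 ± 0.22 SE (95% interval −0.19 to 0.80, limma adjusted p = 0.766). Fosl2 encodes Fra-2, which lacks the strong activation domain of c-Fos and is known to accumulate more slowly. It had 56.7, 90.8 and 107 FPKM in DSS libraries, against 135, 135 and 117 FPKM in control libraries. The lowest value was that of DSS replicate 1, and DSS replicate 3 came closest to the controls. Means were 84.9 ± 25.8 FPKM in DSS and 129 ± 10.2 FPKM in control libraries, with a log2 change of −0.64 ± 0.25 SE (95% interval −1.21 to −0.073, limma adjusted p = 0.467).

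Fosb and Fosl1 overlapped between the groups. Fosb, known for a short isoform that persists after repeated stimulation, had 269, 313 and 296 FPKM in DSS libraries, against 361, 371 and 296 FPKM in control libraries. Only control replicate 3 fell within the DSS range, and the log2 change was −0.22 ± 0.20 SE (limma adjusted p = 0.822). The table counts whole genes, so the Fosb isoforms were not separated. Fosl1, which encodes Fra-1, was scarce, with 2.93, 4.95 and 3.61 FPKM in DSS libraries, against 5.51, 5.60 and 3.97 FPKM in control libraries. These rested on 68 to 177 fragments in DSS libraries and 95 to 240 in control libraries (log2 change −0.33 ± 0.27 SE, limma adjusted p = 0.806). Fosl1 shares 2767 bases of its locus with Ccdc85b on the other strand, whose level was 5.30 to 6.52 FPKM in DSS and 4.04 to 5.21 FPKM in control libraries. Unstranded libraries cannot tell the 2 genes' shared fragments apart.

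Among the JUN genes, the 3 DSS libraries disagreed with each other more than the groups did. Jun encodes c-Jun, the strongest activator of the 3 JUN proteins and the target of JNK kinases. It had 776, 1533 and 1696 FPKM in DSS replicates 1, 2 and 3, against 717, 802 and 768 FPKM in control replicates 1, 2 and 3. DSS replicates 2 and 3 lay above every control library, while DSS replicate 1 lay within the control range. Means were 1335 ± 491 FPKM in DSS and 762 ± 42.7 FPKM in control libraries, and the log2 change was 0.73 ± 0.30 SE (95% interval 0.048 to 1.41, limma adjusted p = 0.497). Without DSS replicate 1 the log2 change was 1.08 ± 0.14 SE and Jun passed (limma adjusted p = 0.00175), the 1 member of the 10 to do so, in a fit where 3.47% of genes passed. That fit treats the remaining pair of DSS libraries as the group.

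Junb and Jund had their lowest value of the 6 in DSS replicate 1. Junb, known in T helper cells as an activator of Il4 and a partner of BATF, had 1905, 5668 and 5331 FPKM in DSS libraries, against 4518, 4801 and 4381 FPKM in control libraries. DSS replicate 1 was below and DSS replicates 2 and 3 above every control library, so the mean change of −0.24 ± 0.40 SE (limma adjusted p = 0.907) describes neither. Jund, the most steadily expressed JUN gene in many cells and known as a brake on proliferation, had 522, 1527 and 1024 FPKM in DSS libraries, against 879, 939 and 896 FPKM in control libraries. The same split was seen, with a log2 change of 0.047 ± 0.35 SE (limma adjusted p = 0.986), which changed sign with equal library totals (−0.016) and with quantile normalization (−0.098). Without DSS replicate 1 the log2 changes were 0.27 for Junb and 0.47 for Jund, and neither passed (limma adjusted p = 0.493 and 0.192).

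Coefficients of variation of the JUN genes were 36.8% to 49.0% in DSS libraries and 3.42% to 5.61% in control libraries. Over all 10 members, 8 had a larger SD of log2 values in DSS than in control libraries, and 6 had their lowest value of the 6 libraries in DSS replicate 1, against 38.8% of all tested genes. Junb and Jund transcripts are short (1809 and 1668 bases) and rich in GC (62.6% and 67.1%). In DSS replicate 1 they deviated from the 6-library median by −1.29 and −0.81, while the median gene of their length class deviated by 0.12. With length and GC trends removed from every library, an alternative chosen after seeing the data, the log2 changes were 0.82 for Jun, −0.23 for Junb and 0.046 for Jund, and 0 of the 10 members passed.

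The JUN loci lie on chromosome 4 (Jun, 95049034 to 95052222) and chromosome 8 (Junb, 84974484 to 84978718, and Jund, 70698949 to 70700616; all mm10). Jun and Jund have 1 exon, so fragments of genomic DNA cannot be told from their transcripts. Jun shares 689 bases with the antisense gene Junos and Jund 919 bases with the antisense gene Gm11175, neither of which was measured here. Junb shares 351 bases with Prdx2 on the other strand, which had 59.1 to 92.0 FPKM in DSS and 96.3 to 112 FPKM in control libraries, far below Junb. The fragments of such overlaps cannot be assigned to a strand in these libraries. Fos lies on chromosome 12 (85473890 to 85477273) and Fosl2 on chromosome 5 (32135801 to 32157842), with no annotated gene overlapping either.

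Proportions within each subfamily do not depend on the scaling of a library. The groups overlapped for fewer of these shares than of the levels, but no exact p was under 0.10. Jun made up 24.2%, 17.6% and 21.1% of the summed JUN gene FPKM in DSS replicates 1, 2 and 3, against 11.7%, 12.3% and 12.7% in control replicates 1, 2 and 3. All 3 DSS libraries lay above all 3 control libraries, DSS replicate 1 included, with means of 20.95% ± 3.33 in DSS and 12.2% ± 0.488 in control libraries (SD, n = 3 each). Junb made up 59.5%, 64.9% and 66.2% in DSS libraries, against 73.9%, 73.4% and 72.5% in control libraries. The levels behind these shares differed. In DSS replicate 1 Jun lay within the control range (776 FPKM) and Junb below it (1905 FPKM, controls 4381 to 4801). In DSS replicates 2 and 3 both genes lay above every control library. Jund overlapped, with 12.7% to 17.5% in DSS and 14.4% to 14.8% in control libraries.

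Within the FOS genes, Fos made up 89.0%, 85.0% and 86.0% of the summed FPKM in DSS libraries, against 79.3%, 79.9% and 83.4% in control libraries. Fosl2 made up 1.89%, 3.34% and 3.68% in DSS libraries, against 5.58%, 5.28% and 4.68% in control libraries. Fosb made up 8.98% to 11.5% in DSS and 11.8% to 14.9% in control libraries, again without overlap. Of the 7 shares computed, 5 did not overlap between the groups. For each of these 5 an exact two-sided permutation test over the 6 libraries gave p = 0.10 (adjusted p = 0.14 over the 7 shares), and 0.10 is the smallest value that 3 against 3 libraries allow. Shares of 1 sum are tied to each other, and this measure was chosen after the levels were seen. Shares within other sets of genes were not computed, so the count of 5 has no reference over all genes. DSS replicate 1 had the highest Jun share, while its median gene deviated by −0.33 in the length class of Jun (3189 bases) and by 0.12 in that of Junb (1809 bases). GC content ran the other way, being 55.5% for Jun and 62.6% for Junb. Among transcripts of 1420 to 2242 bases, DSS replicate 1 deviated by −0.13 at 55% to 60% GC and by −0.39 above 60%. Jun is longer than those transcripts. The part of either trend in the shares was not tested.

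**Figure D4:**
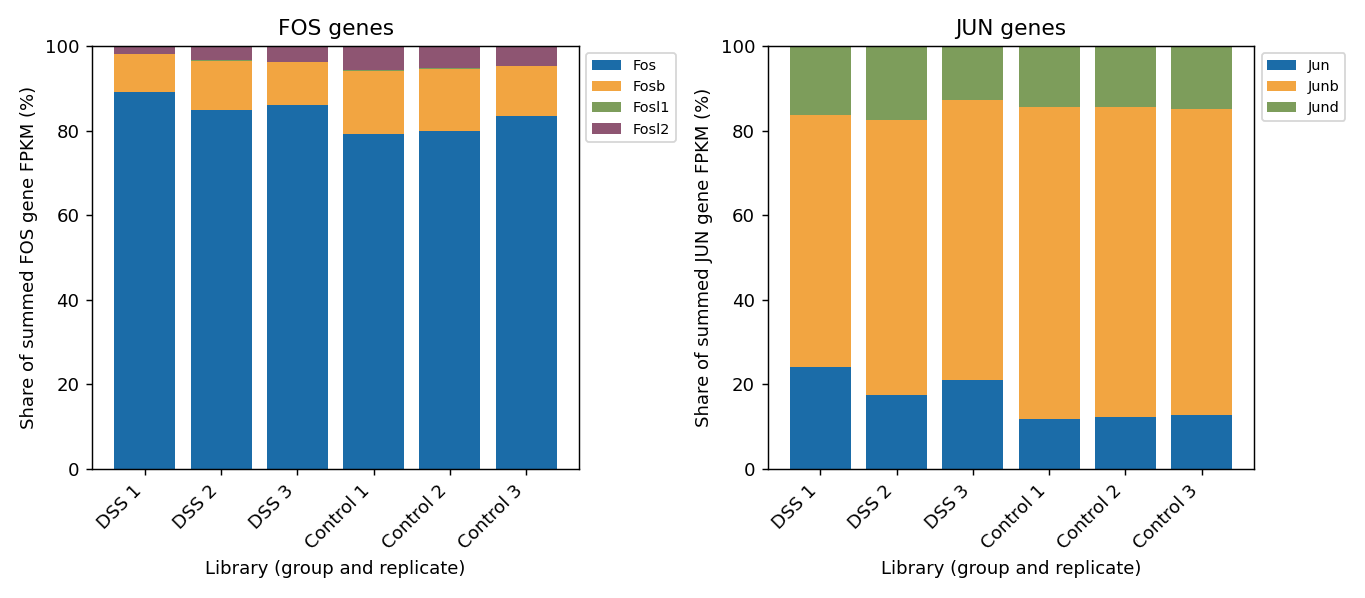
Share of each gene in the summed FPKM (y axis, percent) of the 4 FOS genes (left) and the 3 JUN genes (right) in each library, DSS libraries first. Jun, the lowest segment on the right, takes 17.6% to 24.2% in DSS and 11.7% to 12.7% in control libraries.

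The balance of FOS to JUN transcripts did not differ between the groups beyond the spread of the DSS libraries. The log2 ratio of summed FOS to summed JUN gene FPKM was −0.095, −1.68 and −1.47 in DSS replicates 1, 2 and 3, against −1.34, −1.36 and −1.27 in control replicates 1, 2 and 3. DSS replicate 1, with nearly equal sums of 3000 and 3204 FPKM, stood above the controls, and DSS replicates 2 and 3 below them. Means were −1.08 ± 0.861 in DSS and −1.32 ± 0.046 in control libraries, a difference of 0.24 (exact two-sided permutation test, p = 1, n = 3 each). Without DSS replicate 1 the difference was −0.25 (exact two-sided permutation test, p = 0.20, the smallest value that the remaining libraries allow).

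Atf3, which encodes a stress-induced member of the wider family known in macrophages to restrain inflammatory cytokine genes, overlapped between the groups. It had 1136, 1179.5 and 998 FPKM in DSS libraries, against 1222, 1243 and 1114 FPKM in control libraries. DSS replicate 3 was the lowest and control replicate 2 the highest, and the log2 change was −0.11 ± 0.21 SE (95% interval −0.59 to 0.36, limma adjusted p = 0.918). Atf3 was steady among the DSS libraries, with a coefficient of variation of 8.59% in DSS and 5.81% in control libraries.

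Of the small MAF genes, Maff had 41.1, 46.4 and 39.5 FPKM in DSS libraries, against 55.1, 51.2 and 44.0 FPKM in control libraries. Only DSS replicate 2 lay above the lowest control library, and the log2 change was −0.24 ± 0.19 SE (limma adjusted p = 0.810). Mafk followed the JUN genes in its spread, with 9.60, 27.7 and 25.4 FPKM in DSS libraries, against 23.0, 24.5 and 22.2 FPKM in control libraries. DSS replicate 1 was below, and DSS replicates 2 and 3 above, every control library (log2 change −0.27 ± 0.35 SE, limma adjusted p = 0.882). The Mafk change was 0.19 when DSS replicate 1 was left out.

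Partners of the small MAF proteins did not pass with all 6 libraries. Of 6 listed, 5 were tested and 0 passed by limma or voom, while 2 had an unadjusted p under 0.05 and lay entirely below the controls. Over all genes, 8.99% had such a p and 9.60% lay entirely below the controls. Nfe2l2 encodes NRF2, the activator of antioxidant genes, and averaged 39.0 ± 4.93 FPKM in DSS and 63.8 ± 1.36 FPKM in control libraries (log2 change −0.70 ± 0.19 SE, limma adjusted p = 0.217). Bach1 encodes a repressor that competes with NRF2 for small MAF partners, and averaged 4.87 ± 1.39 FPKM in DSS and 8.55 ± 0.317 FPKM in control libraries (limma adjusted p = 0.356). Without DSS replicate 1, Nfe2l2 passed (log2 change −0.64, limma adjusted p = 0.0267). Of 5 other MAF genes, Maf and Mafg were tested and overlapped between the groups.

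Partners of JUN and FOS outside the 10 gave 5 higher and 6 lower of 11 tested, with a median log2 change of −0.08. By limma and by voom 0 passed, and 0 had an unadjusted p under 0.05. Crem, which encodes a regulator of cAMP response sites, averaged 208 ± 93.0 FPKM in DSS and 266 ± 14.8 FPKM in control libraries. It had 314, 167 and 142 FPKM in DSS libraries, against 283, 259 and 257 FPKM in control libraries. DSS replicate 1 thus lay above every control library, and Crem passed only when that library was left out (log2 change −0.78, limma adjusted p = 0.00724). Jdp2, a repressor that pairs with JUN, averaged 23.9 ± 12.5 FPKM in DSS and 34.7 ± 6.30 FPKM in control libraries. Ddit3, with the smallest p of the list, was higher, averaging 103 ± 30.8 FPKM in DSS and 72.7 ± 10.3 FPKM in control libraries. Its groups overlapped (log2 change 0.46 ± 0.26 SE, limma adjusted p = 0.672). Batf, a partner of JUN proteins in lymphocytes named here although outside the naming rule, had 269, 154 and 147 FPKM in DSS libraries, against 190.1, 213 and 214 FPKM in control libraries. Its DSS libraries lay on both sides of the controls.

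Upstream of AP-1, 16 of 22 tested MAP kinase cascade genes were lower in DSS libraries, with a median log2 change of −0.22, and 8 of 11 SRF, ELK and MEF2 activators were lower, with a median of −0.31. In both lists 0 passed by limma or voom, and 1 and 0 genes had an unadjusted p under 0.05, against 8.99% of all genes. DSS replicate 1 was the lowest of the 6 libraries for 16 of the 22 and for 8 of the 11 genes, and without it the medians were −0.0024 and 0.031. Map2k3, a kinase that activates p38, averaged 85.4 ± 38.7 FPKM in DSS and 172 ± 10.6 FPKM in control libraries, with no overlap (log2 change −1.12 ± 0.35 SE, limma adjusted p = 0.304). It passed without DSS replicate 1 (log2 change −0.67, limma adjusted p = 0.0134). Of 9 genes for the turnover of JUN and FOS proteins or transcripts, 0 passed by either tool and 0 had an unadjusted p under 0.05.

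Immediate early genes outside the family went both ways. Of 28 listed, 27 were tested, with 11 higher and 16 lower, a median log2 change of −0.14, and 0 passing by limma or voom. An unadjusted p under 0.05 was found for 8, and the groups did not overlap for 10, with 4 higher and 6 lower in DSS libraries. Over all genes, 8.99% had such a p, 6.35% lay entirely above the controls and 9.60% entirely below. Nr4a2 and Nr4a3, orphan nuclear receptor genes induced by calcium and antigen receptor signals, averaged 50.3 ± 19.5 and 18.5 ± 10.04 FPKM in DSS libraries, against 138 ± 3.19 and 53.5 ± 6.03 FPKM in control libraries. Klf2, a transcription factor of lymphocyte quiescence and egress, averaged 220 ± 38.2 FPKM in DSS and 105 ± 12.6 FPKM in control libraries. Btg2, an antiproliferative gene, averaged 513 ± 57.1 FPKM in DSS and 259.7 ± 16.2 FPKM in control libraries. These 4 had the smallest p of the list (limma adjusted p = 0.0991 to 0.156). Without DSS replicate 1, 6 of the 27 passed, Klf2, Btg2, Klf6 and Dusp2 higher and Nr4a2 and Nr4a3 lower, in a fit where 3.47% of all genes passed.

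Of 14 heat shock and chaperone genes tested, 2 passed, both higher in DSS libraries. By sign 13 were higher, 11 of them with no overlap, and 1, Hsf1, was lower (log2 change −0.52, limma adjusted p = 0.774). Of all genes, 0.0738% passed higher with all 6 libraries, and 6.35% lay entirely above the controls. The median log2 change was 0.79 against 0.03 over all genes. Hspb1, which encodes a small heat shock protein, and Dnajb1, which encodes an HSP40 co-chaperone, rose (log2 changes of 2.31 ± 0.33 SE and 1.52 ± 0.23 SE, limma adjusted p = 0.0426 for both). Hspb1 averaged 1120.0 ± 539 FPKM in DSS and 206 ± 3.27 FPKM in control libraries, and Dnajb1 2607 ± 376 FPKM in DSS and 906 ± 121 FPKM in control libraries. Both also passed without DSS replicate 1, among 12 of the 14 genes, in a fit where 3.47% of all genes passed. Whether AP-1 levels depend on this difference was not tested.

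Genes known as AP-1 targets in other settings were mostly lower. Of 20 listed, 16 were tested, 11 of them lower, with a median log2 change of −0.32. Over all genes, 53.1% were higher, the median was 0.03 and 0.148% passed lower with all 6 libraries. DSS libraries lay entirely below controls for 5 of the 16 and entirely above for 1, against 9.60% and 6.35% of all genes. Il5, the eosinophil growth factor gene, fell to 66.0 ± 7.50 FPKM in DSS libraries, against 359 ± 11.5 FPKM in control libraries (log2 change −2.43 ± 0.19 SE, limma adjusted p = 0.000866). It was the 1 target that passed with all 6 libraries, against 7 of 16 without DSS replicate 1, all lower (Il2, Il4, Il5, Il13, Csf2, Vim and Cd44). In that fit 3.47% of all genes passed. DSS replicate 1 itself lay above every control library for Il4 (1025 FPKM, controls 704 to 774) and Il2 (94.3 FPKM, controls 75.2 to 90.0). It lay within the control range for Csf2, and below every control library for Il5, Il13, Vim and Cd44. Il13 averaged 15.1 ± 4.46 FPKM in DSS and 25.6 ± 1.91 FPKM in control libraries. Cd44, an adhesion receptor gene, averaged 42.2 ± 1.75 FPKM in DSS and 80.3 ± 17.2 FPKM in control libraries. Vim, which encodes vimentin, averaged 65.9 ± 9.44 FPKM in DSS and 118 ± 21.5 FPKM in control libraries. All 3 lay below the controls in every DSS library. They did not pass with all libraries (limma adjusted p = 0.161 to 0.312) and passed without DSS replicate 1 (limma adjusted p = 0.00582 for Il13, 0.0193 for Cd44 and 0.0164 for Vim). Whether these genes respond to AP-1 in ILC2s was not measured.

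**Figure D5:**
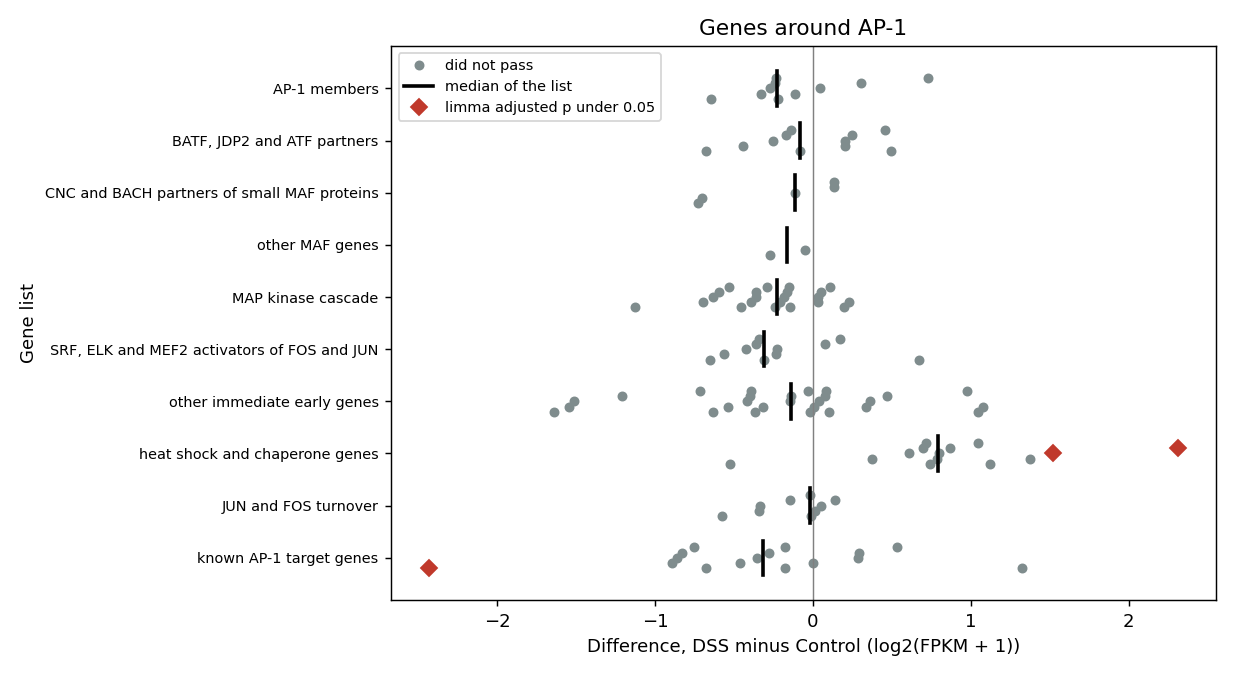
Difference of each tested gene, DSS minus control (x axis, log2(FPKM + 1)), in the AP-1 family and 9 lists of related genes (rows), with list medians as black bars and genes that passed the limma threshold as red diamonds. The heat shock and chaperone row has the highest median, 0.79, and the AP-1 family row has a median of −0.23.

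Summed markers of some other cells that the sorted samples could hold were higher in DSS libraries, while those of others overlapped between the groups. The 12 neutrophil markers summed to 73.9 to 123 FPKM in DSS and 10.2 to 14.8 FPKM in control libraries. Of the 7 tested, 7 were higher and 3 passed (S100a8, S100a9 and Retnlg), while Ly6g and Camp were at 0 in DSS replicates 1 and 2. Over all genes, 53.1% were higher and 0.0738% passed higher. The 11 macrophage markers summed to 21.6 to 51.6 FPKM in DSS and 14.8 to 20.7 FPKM in control libraries, and the 11 colon epithelial markers to 51.8 to 57.5 FPKM in DSS and 20.4 to 38.8 FPKM in control libraries. The 5 B cell markers, led by Jchain, summed to 42.3 to 189 FPKM in DSS and 23.2 to 34.9 FPKM in control libraries. In the macrophage, epithelial and B cell lists 0 genes passed. T cell markers (22.1 to 62.7 FPKM in DSS and 24.4 to 35.4 FPKM in control libraries), ILC3 markers (70.6 to 309.6 FPKM in DSS and 171 to 284 FPKM in control libraries) and stromal markers (10.1 to 25.9 FPKM in DSS and 17.9 to 31.8 FPKM in control libraries) overlapped between the groups. Myeloid and epithelial cells also express FOS and JUN genes, and the part of such cells in the AP-1 differences was not tested.

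For the members named by the rule, the genes of closest pattern over the 6 libraries were sought among 6725 others with a mean of at least 5 FPKM, by the root-mean-square difference of log2(FPKM + 1) values centred on each gene's mean. They were Morf4l1, Rapgef6 and Fam3c for Fos (0.056 to 0.063), Pard3, Particl and Fkbp5 for Jun (0.12 each), Zfp639, Mlf2 and Gimap6 for Atf3 (0.046 to 0.049) and Matr3, Rab1a and Pcnp for Maff (0.034 to 0.045). Fkbp5, a glucocorticoid-induced gene, had 23.6, 45.9 and 50.6 FPKM in DSS libraries, against 26.9, 24.8 and 24.4 FPKM in control libraries, with DSS replicate 1 low as for Jun. The 6 libraries are the only points behind these distances.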

How the data were processed

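The values for 23268 genes came from the authors' single table, deposited in FPKM, that is, fragments scaled to gene length and library total. Per the submitters' processing notes, the tools were cutadapt 1.9 and HISAT2 2.2.1, with build mm10. Which counting tool and annotation were used is not given in the sources. Per the labels' protocols, cDNA came from a SMART-Seq HT kit and libraries from a Nextera XT kit. Such libraries carry no strand information.

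Here limma 3.58.1 (R 4.3.3; lmFit, then a two-sided eBayes test with trend) was fitted to log2(FPKM + 1) for the 12187 genes with a mean of at least 1 FPKM over the 6 libraries, with Benjamini-Hochberg adjustment over all of them and a threshold of 0.05. Because the unit is FPKM, a count model was not the main test. Whole fragments (tolerance 0.001) were recovered from the common step of each gene's values for all 22701 genes above 0, or 100%, and limma's voom on them was an alternative. That share is fixed in advance for genes above 0 in only 1 library. The test was also run on simulated data. Chi-square values per degree of freedom between libraries of a group were at least 20.1, so no library was counted as a duplicate. Samples were grouped by title and columns matched by name.

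Same-numbered libraries deviated together from their group means (r = 0.189 for replicate 1, 0.262 for replicate 2 and 0.545 for replicate 3). All exceed 0.1, the limit used for taking numbers as pairs, so a fit with the number as a block was run as an alternative. The p-values, errors and permutation tests in the text are those without the block. The labels themselves give no pairing, and DSS replicate 2 correlated more with control replicate 1 (0.345).

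The members, the gene lists and the rule for named genes were chosen with earlier results of these data known. That rule named all 10 members, the passing genes of each list or up to 4 with the smallest p, and for Fos, Jun, Atf3 and Maff the 3 genes of closest pattern. Genes named outside it are marked where they appear. Not every gene that the rule names is reported here. Transcript lengths, GC content and coordinates are those of GENCODE M21 (GRCm38, the same as mm10; 21372 symbols matched), and promoter sequences are from RefSeq (GRCm38.p6). Coordinates are 1-based. Python 3.11.15 with pandas 2.3.3, scipy 1.17.1 and matplotlib 3.10.9 served for tables, permutation tests and figures.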

Additional observations from a re-analysis of the deposited data

How the results depend on the processing

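With 21 alternatives (20 for Fosl1, which a filter at a mean of 5 FPKM removes), 7 of the 10 members kept the sign of their log2 change and 0 of the 10 passed in 18 settings. The count of members that passed was 3 with default library weights (Jun 0.99 and Jund 0.72 higher, Fosl2 −0.53), whose estimate stopped before convergence, 1 (Jun, 0.94) with the gene-by-gene weights added after seeing the data, and 0 to 1 over the fits without 1 library, the 1 being Jun without DSS replicate 1. Signs changed for Junb (0.28 and 0.15 with the default and gene-by-gene weights, −0.52 to 0.27 without 1 library), Mafk (0.21 and 0.091 with the weights, 0.19 without DSS replicate 1) and Jund (−0.016 with equal totals, −0.098 after quantile normalization, −0.31 to 0.47 without 1 library, being −0.018 without DSS replicate 3, −0.025 without both libraries numbered 3). The FOS to JUN difference of 0.24 was −0.73 without Fos and Junb, −0.25 to 0.54 without 1 library, and 0.066 on fragments. Over all genes, 27 passed (9 higher and 18 lower), against 14 with equal totals (6 and 8), 9 with median-of-ratios scaling (5 and 4), 4 without a trend, 3286 and 635 with the default and gene-by-gene weights, 8 without both libraries numbered 3, and 5 to 435 without 1 library, the filter being applied again each time. The cause of these changes was not tested. With the replicate block 22 genes passed, 12 higher and 10 lower, and 0 members, and the FOS to JUN difference was 0.24; the block changed no call among the members. Depth limits Fosl1 most, at 68 to 240 fragments per library.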
